A study of Oryctolagus cuniculus with 16 samples.

Results

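Oligodendrocyte progenitor cells (OPC) were compared with microglia from the brains of rabbit kits that received a control virus. The 8 libraries labelled Ad-GFP, 4 of OPC and 4 of microglia, were taken from the 16 libraries of the series by their treatment and cell-type labels alone, with no measured value used. All 8 came from New Zealand rabbit kits born preterm that had moderate to severe intraventricular haemorrhage (IVH), a bleed into the fluid spaces of the brain seen in preterm newborns. Each kit was injected into a lateral ventricle with Ad-GFP, an adenovirus that makes green fluorescent protein from the broadly active CMV promoter. The other 8 libraries came from kits given Ad-PPARg, which carries the nuclear receptor PPARg beside green fluorescent protein, and were used only to see whether the same contrast was found in other animals. Every kit of both sets thus carried the bleed and a virus, so that the values describe these cells in injected brains with haemorrhage and not in healthy tissue. At day 7, microglia were sorted as CD11b-positive cells with low CD45, and OPC as cells positive for the O4 antigen.

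Microglia are the resident immune cells of the brain. They arise from the yolk sac, take up debris and dying cells, and express complement, Fc receptor and antigen presentation genes. OPC arise from the neuroepithelium and mature into the oligodendrocytes that wrap axons in myelin, and the O4 antigen marks their later, committed stage. Genes for cell adhesion, synapses and ion channels, which neural cells use widely, are known to include many of the longest genes of mammalian genomes, most of their length being intron.

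The deposited tables give Ensembl rabbit identifiers without gene names, and 0 of the 23669 identifiers could be matched to the reference table used here. The markers that define microglia, OPC, astrocytes, neurons, vessels and blood cells could therefore not be looked up, and the labelled cell types were not checked against them. What the tables do give for each gene is its position, strand, exons and length, and the contrast is described by these: by the size of the difference, by expression level, by span (the distance from the first to the last exon base) and by the number of exons.

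Libraries held 6558459 to 15783307 counts on genes in OPC and 6637081 to 17608855 in microglia. Spearman correlations of log2 CPM (counts scaled to the library total) were 0.979 to 0.990 between OPC libraries, 0.961 to 0.991 between microglia libraries and 0.591 to 0.652 between the cell types. Microglia varied more between animals, with a median biological coefficient of variation of 0.245 over genes against 0.145 in OPC. The microglia library of animal K193-5 stood apart: mitochondrial genes from position 7000 onward summed to 78.2 CPM in it and to between 10785 and 19510 CPM in the other 3 microglia libraries. Animals K195-9, K195-11 and K198-7 gave both cell types, while K193-5 gave only microglia and K198-5 only OPC.

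The 2 cell types differed at most of the genes they expressed, and about as many genes were higher in OPC as in microglia. Of 13736 genes tested, OPC had more RNA of 4704 (34.2%) and microglia of 4688 (34.1%), by edgeR's quasi-likelihood test at a Benjamini-Hochberg adjusted p under 0.05. In all, 9392 genes (68.4%) differed, and 4344 did not pass the test. Log2 differences are given as OPC minus microglia, so that a positive value means higher in OPC, and the median standard error of a difference was 0.20. The even split belongs to the scaling, which sets the bulk of genes equal (median difference 0.01 over all genes). With library totals alone, the median of all genes moved to 0.59, and the split became 7197 genes higher in OPC against 2979 higher in microglia. Without the microglia library of K193-5, the counts were 4677 and 4676. Each library is the pooled RNA of a sort, so that fewer cells expressing a gene and less of its RNA per cell cannot be told apart.

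By size, the contrast reached from small shifts to near-absence in one of the cells. Genes that differed were on the median 3.14-fold higher in OPC or 2.66-fold higher in microglia. At least 2-fold differences were found for 3246 genes higher in OPC (23.6%) and 3021 higher in microglia (22%). At 16-fold or more, 808 genes were higher in OPC (5.88%) and 782 in microglia (5.69%). Without the K193-5 library these were 686 and 803, and without microglia replicate 2 they were 963 and 801. Upper-quartile scaling gave 905 and 722, and library totals 1085 and 611. Under the main scaling the balance shifted at the far end, where 117 genes were at least 64-fold higher in OPC (0.852%) and 233 in microglia (1.7%). Differences of 64-fold were not counted again under other settings. A further 263 genes were at least 2-fold apart without passing the test, and these had a median of 16.9 counts per library against 332 for all genes tested.

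Outright absence was rare among expressed genes. Only 5 genes had no count in any OPC library while reaching 1 CPM on the mean and counts in all 4 microglia libraries, which puts them at least 23.0-fold to at least 220-fold higher in microglia. In the other direction 2 genes had no count in any microglia library, at least 19.7-fold and at least 21.1-fold higher in OPC. These bounds set the empty group at 3 counts over its 4 libraries together. Most genes of large difference were therefore still counted in at least 1 library of the other sort. Whether these counts are expression, stray cells of the other type or free RNA was not tested.

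In OPC, the gene with the largest difference among those with at least 10 counts in every library was ENSOCUG00000017799. It lies on chromosome 13 at 2513352 to 2721566, on the minus strand, with 23 exons. Its levels were 2193, 1435, 2252 and 2004 CPM in OPC replicates 1 to 4 and 4.91, 15.5, 17.3 and 6.06 CPM in microglia replicates 1 to 4. The groups were far apart, with the OPC library of K195-11 the lowest of its group and the microglia library of the same animal the highest of the other. The gene was 177-fold higher in OPC (log2 difference 7.47, SE 0.49, edgeR adjusted p = 7.9e-07).

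The most abundant of the genes at least 16-fold higher in OPC was ENSOCUG00000014800, on the X chromosome at 86329163 to 86439439, minus strand, with 9 exons. A gene on the opposite strand overlaps it, and reads of the 2 genes may have been mixed, since the strand setting of the counting is not given in the sources used here. Its levels, in RPKM (CPM per kilobase of exon), were 2503, 1065, 2095 and 1651 in OPC replicates 1 to 4 and 3.28, 20.1, 29.0 and 7.64 in microglia replicates 1 to 4. Again K195-11 had the lowest OPC value and the highest microglia value. The log2 difference was 6.92 (SE 0.73, edgeR adjusted p = 2.0e-05).

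In microglia, the largest difference under the same rule was that of ENSOCUG00000002492, on chromosome 7 at 35300743 to 35367222, minus strand, with 14 exons. It stood at 982, 1148, 1101 and 703 CPM in microglia replicates 1 to 4 and at 2.49, 0.757, 2.61 and 4.52 CPM in OPC replicates 1 to 4. The gene was 399-fold higher in microglia (log2 difference -8.64, SE 0.49, edgeR adjusted p = 3.1e-07). Here K198-7 had the lowest microglia and the highest OPC value, so that the difference within that animal was the smallest of the 3 pairs, at -7.20 against -8.79 in K195-9 and -10.28 in K195-11.

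ENSOCUG00000014108, a short gene of 4 exons on the unplaced scaffold GL018717 (2789010 to 2791550, plus strand), was the most abundant of the genes at least 16-fold higher in microglia. Its exons add up to 761 bases. It reached 35468, 32221, 33378 and 24482 RPKM in microglia replicates 1 to 4, against 746, 838, 844 and 824 RPKM in OPC. The groups did not overlap, and the difference was 38.6-fold (log2 -5.27, SE 0.18, edgeR adjusted p = 3.8e-08). Although far lower than in microglia, this gene was not scarce in OPC: its mean there, 813 RPKM ± 45.3 (SD, n = 4), was above the 524 RPKM that the 100th most abundant gene reached.

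The differences were found within animals as well as between groups. Of the 4704 genes higher in OPC, 4652 (98.9%) were higher in OPC in each of the 3 kits that gave both cell types. Of the 4688 higher in microglia, 4626 (98.7%) were lower in OPC in each. Among the genes of at least 16-fold difference these were 808 of 808 and 781 of 782. These kits supplied 6 of the 8 libraries of the test, so the counts describe how evenly the animals contribute and are no separate evidence.

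The direction of the contrast changed with expression level. Genes were put in classes by their mean RPKM over both cell types. Of the 1545 genes between 1 and 3 RPKM, 44.4% were higher in OPC and 18.1% in microglia, with a median log2 difference of 0.65. Between 10 and 30 RPKM the shares were equal, 35.6% and 36.0% of 4098 genes, with a median of 0.00. The level of balance depended on the scaling: with library totals, 2343 genes of this class were higher in OPC and 864 in microglia (median 0.58). Genes between 30 and 100 RPKM then lay towards OPC too, 1338 against 794 (median 0.29). Of the 1070 genes at 100 RPKM and over, 17.9% were higher in OPC and 63.6% in microglia, and the median was -0.91. With library totals, 320 of these were higher in OPC and 506 in microglia. Microglia thus held more of the abundant genes and OPC more of the moderately low ones. Level and difference come from the same counts, so the classes describe the shape of the contrast and are not independent of it.

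**Figure D1:**
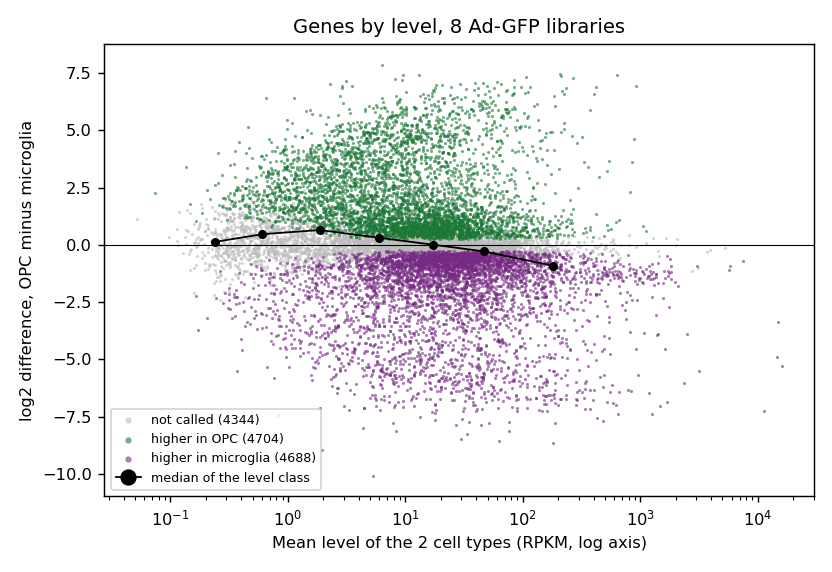
Each point is 1 of the 13736 genes tested, with its mean level over both cell types (RPKM, log axis) and its log2 difference, OPC minus microglia. Green and purple points are the 4704 genes higher in OPC and the 4688 higher in microglia, and the black line, the median of each level class, falls from 0.65 at 1 to 3 RPKM to -0.91 at 100 RPKM and over.

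At high levels this order was the same in each of the 3 paired animals, and at the lowest levels it was not. The median of the genes at 100 RPKM and over was -1.03 in K195-9, -0.85 in K195-11 and -0.63 in K198-7. That of the genes between 3 and 10 RPKM was 0.33 to 0.34 in all 3. Between 1 and 3 RPKM the median was positive in all 3, but its size varied. It was 0.91 in K195-11, 0.38 in K195-9 and 0.31 in K198-7. Between 0.3 and 1 RPKM, however, it was 1.11 in K195-11, -0.13 in K195-9 and -0.42 in K198-7. The pooled median of 0.47 for that class therefore depends on the animal, as does the 0.13 of the 179 genes under 0.3 RPKM, which became -0.27 in the 3 paired kits with an animal term. The number of genes with at least 1 count after thinning each library to the smallest total varied in the same animals. It was 15631 in the K195-11 microglia library and 16558 in its OPC library, against 18762 and 17047 in K195-9 and 19270 and 15770 in K198-7. Whether this spread in rare transcripts accounts for the difference between the animals was not tested.

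The same pattern could be read from the most abundant genes of each cell. Of the 100 most abundant genes of microglia, 89 were higher in microglia, 0 were higher in OPC and 11 did not pass the test. Of the 100 most abundant genes of OPC, 25 were higher in OPC, 51 were higher in microglia and 24 did not pass. The 2 lists share 59 genes, 59% of each. Under the scaling that sets the bulk of genes equal, much of what was most abundant in OPC was thus more abundant still in microglia. The lists were not called again with library totals, which move the differences towards OPC. A list chosen by level in 1 cell type also favours genes that are higher there. Among the 1000 most abundant genes of each cell the difference was smaller, with 797 of the microglial list higher in microglia (55 higher in OPC) and 416 of the OPC list higher in OPC (351 higher in microglia).

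Microglial RNA was correspondingly concentrated on fewer genes. The 100 most abundant genes of a library took 28.6, 28.3, 27.9 and 25.3% of the counts in microglia replicates 1 to 4 and 17.5, 16.5, 17.7 and 17.4% in OPC replicates 1 to 4. The means were 27.5% ± 1.53 and 17.3% ± 0.539 (SD, n = 4 each), the groups did not overlap, and the two-sided exact permutation p was 0.0286. That is the smallest value 4 libraries against 4 can give. The fewest genes that together held 50% of the counts numbered 540 ± 52.8 in microglia and 1072 ± 20.0 in OPC (SD, n = 4 each; exact permutation p = 0.0286). The number of genes with at least 1 count did not differ beyond the spread of the libraries. After thinning, 17338 genes had a count in microglia and 17347 in OPC on the mean (exact permutation p = 1.0, n = 4 each), with 15631 to 19270 and 15770 to 20012 over libraries. At least 10 counts were reached by 11812 genes in microglia and 12845 in OPC on the mean, a difference that missed the threshold (exact permutation p = 0.057, n = 4 each).

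The genes of large difference also carried unequal weight. The 3021 genes at least 2-fold higher in microglia took 57.1% ± 1.03 of the counts of microglia, whereas the 3246 genes at least 2-fold higher in OPC took 31.5% ± 1.46 of the counts of OPC (SD, n = 4 each). At 16-fold or more, the genes higher in microglia had a median level there of 44.7 RPKM, and those higher in OPC had 21.2 RPKM in OPC. All these lists were drawn under the main scaling, from the same counts, as genes high in the cell type described. With library totals, 4926 genes were at least 2-fold higher in OPC and 2085 in microglia. The shares of counts were not computed for those lists.

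By span, very long genes lay towards OPC, and short genes lay towards microglia relative to all genes. Among the 2225 tested genes that span under 3 kb, 28.2% were higher in OPC and 35.8% in microglia, with a median log2 difference of -0.17. That direction turned with the scaling: 761 of the short genes were higher in OPC and 661 in microglia with upper-quartile scaling, and 986 and 497 with library totals (median 0.42). Among the 3618 genes of 30 to 100 kb the shares were 35.2% and 33.3% (median 0.04). Among the 1752 genes of 100 to 300 kb they were 41.2% and 31.3% (median 0.19). The step was steepest at the top: of the 399 genes of 300 kb and over, 54.1% were higher in OPC and 19.8% in microglia, and the median was 1.20. For comparison, the shares over all genes tested were 34.2% and 34.1%.

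The longest genes differed in size of change as well as in direction. Of the 399 genes of 300 kb and over, 79 were at least 16-fold higher in OPC and 5 at least 16-fold higher in microglia. Read the other way, genes of 300 kb and over were 9.78% of the 808 genes at least 16-fold higher in OPC and 0.639% of the 782 at least 16-fold higher in microglia, and 2.90% of all genes tested. The median span was 28678 bases in the first list, 15142 in the second and 21856 over all genes tested. Genes of 300 kb and over were not among the abundant ones, with median levels of 5.67 RPKM in OPC and 1.09 RPKM in microglia. The filter on low counts kept 93.4% of the genes of this class in the tables but 23.9% of those under 3 kb, so the short class rests on its expressed minority.

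**Figure D2:**
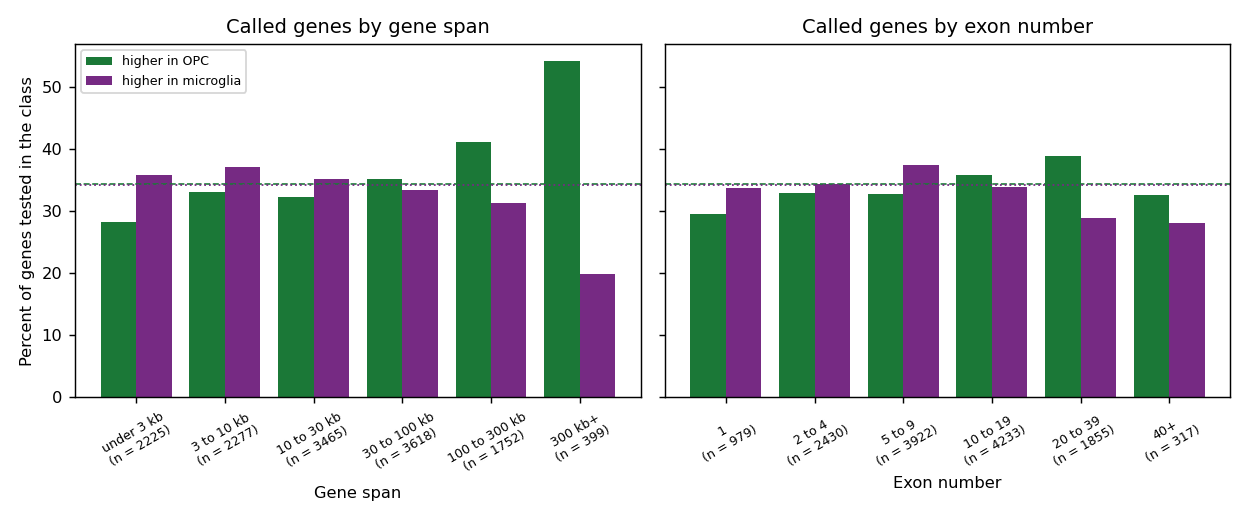
Bars give the percent of tested genes higher in OPC (green) and higher in microglia (purple) by class of gene span (left) and of exon number (right), with the number of genes in each class under it. The dashed lines mark the shares over all genes, 34.2% and 34.1%; the bars part most at 300 kb and over, 54.1% against 19.8%.

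The preference of very long genes for OPC was present at every level of expression, and that of short genes for microglia was not. The tested genes were cut into 3 equal sets of low, middle and high mean RPKM. In these, the genes of 300 kb and over had median differences of 1.27, 1.00 and 1.29 (245, 112 and 42 genes). Genes of 100 to 300 kb had medians of 0.76, 0.01 and -0.31, so their median lay clearly towards OPC in the low set only. In the high set, 111 of them were higher in OPC (32.9%) and 163 in microglia (48.4%). The shorter classes lay towards microglia in that set as well, with medians of -0.48 to -0.31. Of their genes, 22.6 to 28.8% were higher in OPC and 48.0 to 51.3% in microglia. Genes under 3 kb had medians of 0.18, 0.09 and -0.48. Relative to all genes of the same set, the short class lay at -0.27, 0.020 and -0.12. Without the K193-5 library, the long class lay 1.04 above the median of all genes, against 1.19 with it. Each of the 3 paired animals showed the long-gene shift, with medians of 0.98 in K195-9, 1.52 in K195-11 and 0.90 in K198-7. The medians of the short genes were small in the same animals, at -0.18, -0.11 and -0.11.

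In the libraries themselves, the share of counts on genes of 300 kb and over was 2.82, 2.59, 2.74 and 2.77% in OPC replicates 1 to 4 and 0.921, 0.973, 0.951 and 1.09% in microglia replicates 1 to 4. Every OPC library was above every microglia library. The means were 2.73% ± 0.101 and 0.983% ± 0.0725 (SD, n = 4 each; exact permutation p = 0.0286 two-sided, adjusted 0.0442 over 17 library measures). Within the paired animals OPC exceeded microglia by 1.64 to 1.85 percentage points. Genes under 3 kb went the other way, with 13.9% of the counts of OPC and 18.8% of those of microglia (p = 0.0286, exact permutation). Part of this came from 1 gene of the class, ENSOCUG00000014108. In K195-9 it held 323466 of the 15863272 counts of microglia and 10717 of the 15783307 of OPC. The shares without that gene were not computed. All 6 span classes separated the cell types without overlap, the 3 classes under 30 kb being higher in microglia and the 3 classes from 30 kb up higher in OPC. The 6 shares are parts of the same library total, so they are not 6 separate results.

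**Figure D3:**
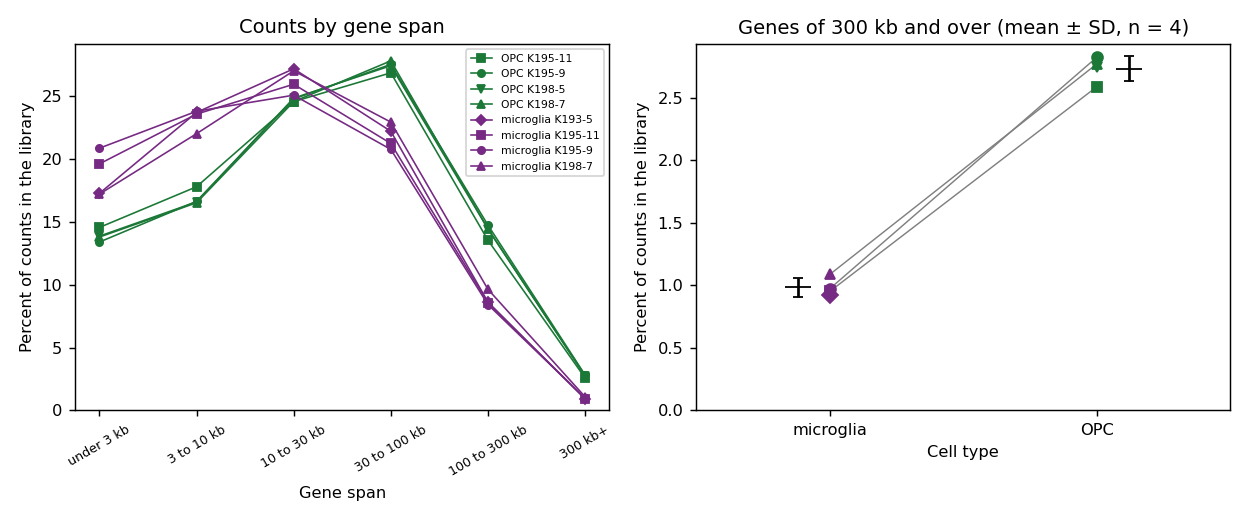
Left, the percent of each library's counts on genes of each span class, 1 line per library (OPC green, microglia purple, 1 marker per animal). Right, the share on genes of 300 kb and over with the mean ± SD of 4 libraries per cell type beside the points and grey lines joining the 3 animals that gave both: OPC lie at 2.59 to 2.82% and microglia at 0.921 to 1.09%.

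Exon number separated the cell types less than span did. Of the 979 tested genes with 1 exon, 29.5% were higher in OPC and 33.6% in microglia (median log2 difference -0.15). This turned too, to 350 against 269 genes with upper-quartile scaling and 428 against 206 with library totals (median 0.43). Of the 1855 genes with 20 to 39 exons, 38.9% were higher in OPC and 28.9% in microglia (median 0.16). The trend did not go on: the 317 genes with 40 exons and over had shares of 32.5% and 28.1% and a median of 0.02. In library shares, genes with 20 to 39 exons took 19.7% ± 0.996 of the counts in OPC and 12.8% ± 1.27 in microglia, without overlap (SD, n = 4 each; exact permutation p = 0.0286). Genes with 2 to 4 exons took 11.8% in OPC and 14.8% in microglia, and those with 5 to 9 exons took 25.2% and 30.8% (both p = 0.0286, exact permutation). The class of 2 to 4 exons includes ENSOCUG00000014108, and its shares without that gene were not computed. The shares on genes with 1 exon, 5.82% in OPC and 5.75% in microglia, overlapped between the groups (exact permutation p = 0.89, n = 4 each). Those of genes with 10 to 19 exons and with 40 exons and over did not pass the test either (p = 0.34 and 0.11, exact permutation).

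With span and exon number crossed, genes of 300 kb and over lay furthest towards OPC in each class from 5 to 39 exons. Below 300 kb, the order by span depended on exon number. With 2 to 4 exons the median rose from -0.20 under 3 kb to 0.92 at 100 to 300 kb. With 20 to 39 exons it was 0.22, 0.11 and 0.12 at 10 to 30, 30 to 100 and 100 to 300 kb. With 40 exons and over it was 0.32, 0.04 and -0.13 in the same spans. Among genes of 300 kb and over the median difference was 1.19 with 5 to 9 exons, 1.35 with 10 to 19 and 1.40 with 20 to 39, and it was 0.30 for the 53 genes with 40 exons and over. Among genes of 100 to 300 kb it fell with exon number, from 0.92 with 2 to 4 exons through 0.53, 0.29 and 0.12 to -0.13 with 40 exons and over. Long genes with few exons, and so with long introns, were thus the ones furthest towards OPC in that class. Of the 75 genes of 100 to 300 kb with 2 to 4 exons, 22.7% were at least 16-fold higher in OPC and 2.67% at least 16-fold higher in microglia.

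**Figure D4:**
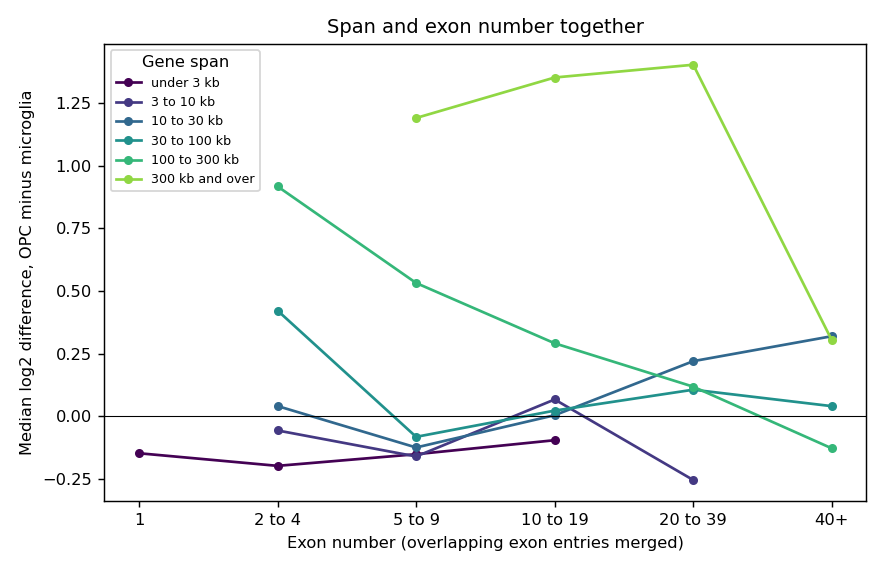
Median log2 difference, OPC minus microglia, of tested genes by exon number (horizontal axis) and span (1 line per span class; cells with too few genes are not drawn). The line of genes of 300 kb and over stays at 1.19 to 1.40 up to 39 exons, and that of genes of 100 to 300 kb falls from 0.92 to -0.13.

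Mean intron length, the span outside exons divided by the number of introns, gave the same order and was looked at after the span and exon classes had been seen. Genes with mean introns under 10 kb, in 3 classes, had medians within 0.05 of that of all genes. Those with mean introns of 10 to 30 kb lay 0.38 above it, and the 372 genes with mean introns of 30 kb and over lay 1.11 above it, with 0.81 to 1.19 over the 3 paired animals. Of these 372 genes, 52.7% were higher in OPC and 24.2% in microglia. The shift was smaller among abundant genes: relative to all genes of the same set, the class of 30 kb and over lay at 1.00 among genes of low level, 0.37 at middle and 0.24 at high level.

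Genes that differ in the same direction tended to lie next to each other. Of 5880 pairs of neighbouring tested genes that do not overlap and that both passed the test, 58.1% changed the same way. At 2 genes apart the share was 54.1%, at 5 apart 51.0%, and at 50 apart 50.3%. Among neighbours that both differed at least 16-fold the same direction was shared by 237 of 290 pairs (81.7%), against 55.5% of such pairs at 50 genes apart. Same-strand and opposite-strand neighbours were alike in this, with 58.9% and 57.3%. The tables do not name the genes, so it was not tested how many of these pairs are copies of one another, between which reads could have been split.

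Some stretches of tested genes were higher in 1 cell type throughout. Runs of at least 4 consecutive tested genes, each at least 4-fold higher in the same cell type, numbered 21 for OPC (99 genes) and 29 for microglia (147 genes). Over all genes tested, 14.8% were at least 4-fold higher in OPC and 12.5% in microglia. The longest was a run of 11 genes higher in microglia on scaffold GL018806, between 131329 and 619148, with log2 differences of -7.13 to -3.48. A run of 8 genes higher in microglia lay on chromosome 9 between 14238905 and 14655705 (-6.97 to -2.33), and 4 of its genes have a single exon. In OPC the longest run held 8 genes on chromosome 3 between 22886787 and 23265441, with differences of 2.39 to 4.86. A run of 7 genes on chromosome 7, 102043417 to 105087071, covered far more ground and had a median of 14 exons per gene. These positions are as the deposited tables give them, since the genome build is not given in the sources used here. Other genes lie between the members of these runs. The stretches on GL018806, chromosome 9, chromosome 3 and chromosome 7 held 14, 11, 11 and 14 genes in all.

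The contrast was found again in the kits that received Ad-PPARg, which share no library or animal with the Ad-GFP kits. There, 3807 of 13585 tested genes stood higher in OPC (28%) and 3752 in microglia (27.6%). Of the 4704 genes higher in OPC in Ad-GFP kits, 3596 (76.4%, and 94.5% of the Ad-PPARg list) passed in the same direction and 0 in the opposite one. Of the 4688 higher in microglia, 3468 did (74.0%, and 92.4% of the Ad-PPARg list), and again 0 were reversed. For genes at least 16-fold apart the same call was made for 791 of 808 and 768 of 782. Across the 13427 genes tested in both, the log2 differences correlated at Pearson's r = 0.975 (genes are not independent replicates), and 94.3% of genes lay within 2-fold between the kits.

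**Figure D5:**
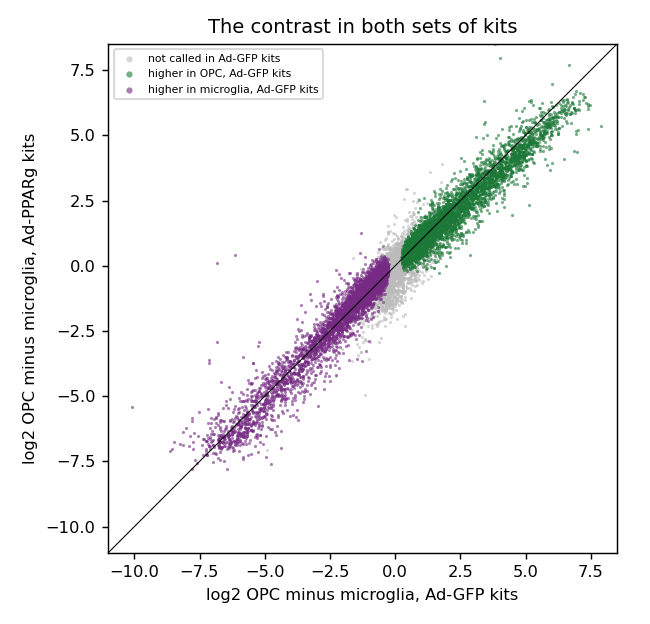
Log2 difference, OPC minus microglia, of each of the 13427 genes tested in both sets of kits, in Ad-GFP kits (horizontal) and Ad-PPARg kits (vertical), coloured by the call in Ad-GFP kits. The line marks equal differences; 94.3% of genes lie within 2-fold of each other.

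The cell-type difference was next compared between the sets of kits, gene by gene. The interaction test over all 16 libraries called 0 of 14699 genes by edgeR, the lowest adjusted p being 0.997, and 402 genes had an unadjusted p under 0.05. That is fewer than the 735 genes that chance alone would give. DESeq2 called 2 genes. The median SE of that difference between contrasts was 0.39 on the log2 scale, so that moderate differences would not have been seen. The 4 named genes had log2 differences of 6.16, 6.70, -7.09 and -4.85 in Ad-PPARg kits, in the order in which they are described here. The pattern of the longest genes was there too. Of the 391 tested genes of 300 kb and over, 47.1% were higher in OPC and 17.6% in microglia in the Ad-PPARg kits, with a median of 0.86. Their share of counts was 2.64% ± 0.297 in OPC and 1.13% ± 0.0981 in microglia (SD, n = 4 each), and the groups did not overlap. Other classes were not all alike in the 2 sets of kits. In the Ad-PPARg kits, genes under 3 kb and genes with 1 exon both had medians of -0.05. Genes with 20 to 39 exons had a median of 0.11. Those with 40 exons and over lay at -0.18, with 25.4% higher in OPC and 29.5% in microglia.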

How the data were processed

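Per the labels' protocols, RNA of sorted cells was extracted with Trizol and sequenced by a commercial provider on a HiSeq instrument as read pairs of 150 bases. Tools in the submitters' processing notes are Subread 1.5.2, STAR 2.5.2b and bcl2fastq 2.17. The authors deposited 1 table of raw read counts for each library, with exons, strand and length of 23669 genes. Genome build, annotation release and strand setting: not given in the sources used here.

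Counts were tested with edgeR 4.0.16 (R 4.3.3): filtering by expression at edgeR's defaults, scaling by TMM, robust quasi-likelihood fits and Benjamini-Hochberg adjustment, on the 8 Ad-GFP libraries without an animal term. SE is the log2 difference divided by the square root of F. RPKM used TMM-scaled CPM and summed exon length. Overlapping exon entries were merged before exons were counted. Classes are described without a test over genes. For the 17 library measures, 4 libraries were permuted against 4 (exact, two-sided). This permutation took the libraries as independent and did not use the pairs from the same animal. The share on the 100 most abundant genes and the mean intron classes were added after the data were seen. The fit was also run on simulated counts, which had no animal effect and the same spread per gene in both cell types. In the data microglia varied more than OPC, so that run cannot show how unequal spread acts on the test. Its outcome is not reported here.

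Named genes were, per cell type, the gene of largest difference with at least 10 counts in every library and the most abundant gene at least 16-fold higher with at least 300 exon bases. The comparison, the classes and the lists were chosen with earlier results of these data known. Lists of named marker and pathway genes could not be used.

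The labels give the animals, and these pair the cell types in 3 kits. Deviations from the group means correlated at 0.0676, 0.0768 and 0.166 between the libraries of 1 animal, and at -0.322 to 0.346 between different animals of the 2 cell types. The 12 pairs of libraries within a cell type had chi-square values per gene of 6.57 to 90.0, where sampling noise gives about 1, so each was counted as its own sample. Wilson 95% intervals are narrow (2.76 to 2.78% for the long-gene share of the smallest OPC library) and cover counting error only. The animal numbers have 3 prefixes, whose meaning the labels do not give; OPC come from 2 of them and microglia from all 3. Alternatives tried were other scalings, DESeq2 1.42.0, limma 3.58.1, animal blocks, sums per prefix, other filters and class definitions, and leaving out each library.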

Additional observations from a re-analysis of the deposited data

Results flagged for a closer look

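In 4 of 42 groups of 4 libraries, 1 library lay apart from the other 3 by more than Dixon's 95% limit, where chance alone gives about 1 in 20 groups. The share of counts on genes of 3 to 10 kb was 17.8% in OPC replicate 2 (K195-11), against 16.5 to 16.7% in the other OPC libraries. The same library had the highest share on genes with 2 to 4 exons, 12.5% against 11.4 to 11.6%. Microglia replicate 4 (K198-7) had the lowest share of its group on genes of 3 to 10 kb, 22.0% against 23.6 to 23.8%. It also had the highest share on genes of 100 to 300 kb, 9.65% against 8.43 to 8.63%. All 4 values lay on the side of the other cell type's mean, and none reached the other group's range.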

How the results depend on the processing

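Counts of genes higher in OPC and in microglia stayed within 1.5 times the main count under every alternative except library totals alone, which gave 7197 and 2979, with 4926 genes at least 2-fold higher in OPC. Leaving out 1 library gave 4275 to 4847 and 4334 to 4891, DESeq2 4868 and 4847, and summing libraries per animal prefix 3682 and 3602. With animal as a replicate block in the 3 paired kits the counts were 4585 and 4336, against 4591 and 4393 in the same 6 libraries unblocked; a random animal block in limma gave 5010 and 4829. For the interaction, DESeq2 called 2 genes, and leaving out 1 library gave 0 to 1, the 1 arising without microglia Ad-PPARg replicate 2.

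Class medians below are relative to all genes, or to all genes of the same set of low, middle or high mean RPKM. They hardly moved with scaling, but the absolute medians of short and single-exon genes turned positive (0.06 and 0.08 with upper-quartile scaling). Genes of 300 kb and over (1.19, with 73.2% of their calls higher in OPC) lay at 0.82 at low and 1.65 at high level, with 79.9, 66.0 and 64.1% at low, middle and high level and 87.1% under library totals. Classes of summed exon length in place of span gave 0.33 and 64.8% at the long end and -0.23 at the short end. Genes under 3 kb (-0.17) lay at -0.27, 0.020 and -0.12, a change of sign at middle level. Single-exon genes (-0.16) lay at 0.026 at middle level, another change of sign, at -0.26 at high level, and at -0.22 without those under 300 bases. Genes with 20 to 39 exons (0.15) lay at 0.078, 0.050 and 0.27. With mean CPM in place of RPKM, the class of 1 to 3 fell from 0.64 to 0.28 and that of 100 and over rose from -0.92 to -0.46. Of the calls in the latter class, 21.9% were higher in OPC, 32.7% by CPM, 27.8% under upper-quartile scaling and 38.7% under library totals. The causes were not tested. The named genes passed the test under every alternative. Library measures were tested again only without mitochondrial genes, where they kept their side of the threshold. With a library left out, only the size of their differences was computed. All but 3 measures, none of which passed the main test, kept their direction. The difference in genes with a count after thinning (8.75) was -541, -560 or -880 without microglia replicate 1, microglia replicate 3 or OPC replicate 3. That in the single-exon share (0.076 points) was -0.52 or -0.077 without microglia replicate 1 or 4 and -0.34 without mitochondrial genes. That in the mitochondrial share (0.42 points) was -0.059 without microglia replicate 1.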

Other observations

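Genes that overlap another gene on the opposite strand (1893 tested) were higher in OPC in 34.8% of cases and in microglia in 31.4%. Those overlapping one on the same strand (1004 tested) had 36.7% and 30.3%. The shares over all genes tested were close to these, at 34.2% and 34.1%. Overlapping genes were also longer, with median spans of 36135 bases (opposite strand) and 57477 bases (same strand) against 21856 over all genes tested. Among chromosomes with over 100 tested genes, of which 3 are named after their values were seen, genes at least 16-fold higher in OPC were 9.95% of the 191 tested genes of chromosome 10 and 9.85% of the 406 of the X chromosome, against 5.88% over all chromosomes. On chromosome 11 2.59% of 232 genes were at least 16-fold higher in OPC and 7.76% in microglia. These shares are descriptions, and no test was made over genes. The share of counts on mitochondrial genes was 2.67% in microglia and 3.09% in OPC on the mean (exact permutation p = 0.57, n = 4 each), and in the microglia it ran from 1.25% in K193-5 to 4.07% in K195-9.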
